A study of Saccharomyces cerevisiae with 4 samples.

Results

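Monoubiquitinated H2B (H2Bub) was 1 of the 2 protein species counted in single yeast cells, the other being H2B without ubiquitin. Its values are the H2Bub counts of all 848 cell barcodes of the strain without the deubiquitinases Ubp8 and Ubp10 (DKO) and of all 850 cell barcodes of the wild-type strain (WT). No deposited barcode was left out here by its count, but the authors had chosen real cells by reads per barcode. Both strains are Saccharomyces cerevisiae BY4741 (MATa his3 leu2 met15 ura3) grown in YPD, and per the study's methods H2B carries a C-terminal spytag and 3xFLAG. The labels write the DKO genotype as dub8/dub10, and the study's text names the deleted genes as UBP8 (YMR223W) and UBP10 (YNL186W). In fixed cells an oligonucleotide was joined to the tag, 2 rounds of ligation gave each cell its barcode, and H2Bub and H2B were separated on a gel, cut out as bands and sequenced as 1 library per band and strain. There was 1 culture per strain and no replicate, so that no test between the strains was possible. All intervals below cover counting error only, and they are 95% intervals apart from 2 kinds. Folds at percentiles and folds of shares carry the widest bounds of the 95% intervals of both strains. At a percentile, that interval treats the percentile value as the count of 1 cell.

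H2B, one of the core histones around which DNA is wound, is encoded in yeast by HTB1 (YDR224C) and HTB2 (YBL002W). The sources used here do not say which of these genes carries the tag. A single ubiquitin is attached to a lysine near the C terminus of H2B by the ubiquitin-conjugating enzyme Rad6 (YGL058W) with the ligase Bre1 (YDL074C), mostly along transcribed genes. Ubp8, which acts within the SAGA coactivator complex, and Ubp10, which is best known for silenced chromatin, take the ubiquitin off again. H2Bub is therefore a modification that is put on and removed all the time, and it is known for its role in the methylation of histone H3 and in transcription elongation.

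Each counted molecule was read through an oligo of designed sequence. The first-round oligo of 47 nt holds a ligation site, a random UMI of 12 nt (written as n) and the first cell barcode of 8 nt, and the second-round oligo of 45 nt holds the second cell barcode of 8 nt. A UMI (unique molecular identifier) marks 1 tagged molecule. A count of UMIs is thus a count of H2Bub molecules in the amplified part of the material recovered from the band. The oligos below are shown because H2Bub counts or shares of the cells that carry them stood apart, as described further on. Capitals mark the cell barcode.
First round, well H3: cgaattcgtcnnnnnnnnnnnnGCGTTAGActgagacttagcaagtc
First round, well F11: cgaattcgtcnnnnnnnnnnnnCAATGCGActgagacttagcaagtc
First round, well H11: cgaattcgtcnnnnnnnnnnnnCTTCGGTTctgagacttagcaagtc
First round, well D7: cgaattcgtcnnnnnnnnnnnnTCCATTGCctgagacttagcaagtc
Second round, well F11: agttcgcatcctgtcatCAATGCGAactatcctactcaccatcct

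Before the values are compared, 2 sets of barcodes have to be set apart. In DKO, 10 of the 848 barcodes (1.18%) had only 207 to 898 H2B UMIs, and their H2Bub counts of 153 to 642 were below those of all 838 other DKO barcodes, which began at 776. Of these 10 cells, 6 carried the second-round barcode of well F11. They were all the DKO cells with that second-round barcode, against a median of 8 cells per second-round barcode in DKO, and no WT cell carried it. The same 8 nt used in the first round gave 8 DKO cells with 1272 to 3903 H2Bub UMIs. The barcodes of the F11 cells are printed to show the part they have in common, in capitals.
DKO, 211 H2Bub and 284 H2B UMIs: ccttccatCAATGCGA
DKO, 190 H2Bub and 321 H2B UMIs: gacgtcatCAATGCGA
DKO, 204 H2Bub and 338 H2B UMIs: gtccttgaCAATGCGA
DKO, 338 H2Bub and 451 H2B UMIs: tcatctccCAATGCGA
DKO, 541 H2Bub and 829 H2B UMIs: aggatagcCAATGCGA
DKO, 416 H2Bub and 898 H2B UMIs: gtaccacaCAATGCGA

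Counts of both bands were low in these cells. Of all H2B in the 10 low cells, 40.0% (39.0 to 41.1%) was H2Bub, against 39.3% (39.26 to 39.33%) in the other 838 DKO cells. Single low cells ranged from 31.7 to 44.9%. Their H2Bub counts are thus low in number, while their share of H2Bub stayed within the range of the strain, and results that these cells move are given with and without them.

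In WT, 1 barcode had no H2Bub UMI, with 2188 H2B UMIs. A count of 0 allows up to 3 UMIs (a one-sided limit), or 0.137% of its H2B count. The 56 other WT cells with H2B counts within 10% of that value had 213 to 390 H2Bub UMIs, with a median of 296.5. Other cells with its ligation barcodes had H2Bub, namely 8 cells of the same first-round well with 289 to 740 UMIs and 12 cells of the same second-round well with 181 to 624 UMIs. Its sequence, with the first-round barcode in capitals, is given since it is the one cell of either strain without an H2Bub UMI.
WT, 0 H2Bub and 2188 H2B UMIs: GGCAAGTTagaccttg

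H2Bub was far more abundant in DKO cells than in WT cells. The DKO library held 2462422 H2Bub UMIs and the WT library 427779. The mean was 2904 ± 1205 (SD, n = 848 cells) H2Bub UMIs per cell in DKO and 503 ± 214 (SD, n = 850 cells) in WT, a 5.77-fold higher level in DKO (5.75 to 5.79). The lowest DKO cell had 153, the median cell 2600 and the highest 8148 H2Bub UMIs. The lowest WT cell had 0, the median cell 440.5 and the highest 1717 H2Bub UMIs. The strains overlapped in the H2Bub count, since 105 of 848 DKO cells (12.4%) were at or below the highest WT cell. Only 12 DKO cells (1.42%) were at or below the 95th percentile of WT, 863.6 UMIs.

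The H2B band was not lower in DKO. H2B without ubiquitin averaged 4486 UMIs per cell in DKO and 4065 in WT, 1.10-fold. DKO cells thus had 2401 more H2Bub UMIs per cell than WT cells and 421 more H2B UMIs, and both species together were 1.62-fold as many. The bands of the 2 strains were cut and amplified separately, and a difference in recovery between bands or gels cannot be told apart from a difference between the strains, for the folds and for the shares below.

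Whether H2Bub by itself falls into 2 populations was asked of the density of log2 counts, in which a peak is a count around which cells gather. In DKO the density had a main peak at 2338 H2Bub UMIs and a second one at 3701, 1.58-fold higher. Between these peaks it fell only to 99.8% of the lesser peak, so that the upper one was a shoulder rather than a separate peak. In WT the peaks stood at 387 and 661 H2Bub UMIs, 1.71-fold apart, and the density between them, at 543, fell to 92.2% of the lesser peak. Without the 10 low cells the DKO peaks stood at 2321 and 3861 UMIs, 1.66-fold apart, with a valley at 97.5% of the lesser peak. Another 3 peaks of the DKO density, at 192, 389 and 568 UMIs, reached at most 1.26% of the main peak and were absent without the low cells.

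**Figure D1:**
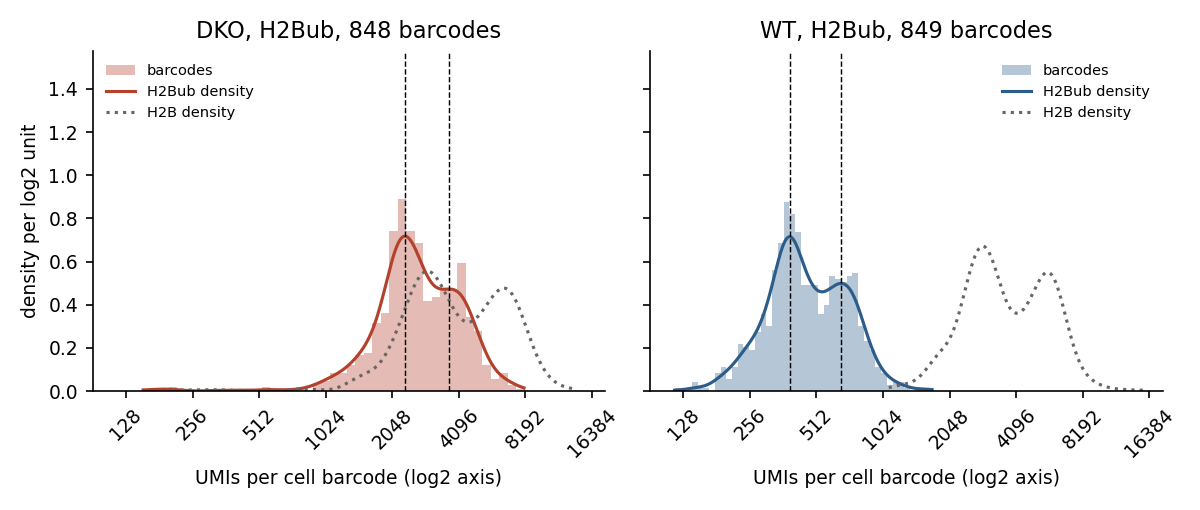
Histogram and density of H2Bub UMIs per cell (log2 axis) in DKO (left) and WT (right), with the H2B density of the same strain dotted; dashed lines mark the H2Bub peaks, 2338 and 3701 in DKO and 387 and 661 in WT. The dip between the H2Bub peaks is shallow in WT and nearly absent in DKO, while the dotted H2B curves have a clear dip.

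A second peak was less distinct in H2Bub than in H2B of the same cells. Treated in the same way, H2B had its valley at 67.0% of the lesser peak in DKO and at 65.5% in WT, and its peaks were 2.21-fold apart in DKO and 1.96-fold apart in WT. With the counts taken on a linear scale, H2Bub had only 1 peak that reached 5% of the highest density in each strain, at 2284 UMIs in DKO and at 380 UMIs in WT. With a bandwidth 1.5 times as wide on log2 counts there was likewise 1 such peak in each strain. A bandwidth 0.75 times as wide gave H2Bub 2 such peaks in each strain on both scales, with valleys on log2 counts at 95.1% of the lesser peak in DKO and 86.4% in WT, and on linear counts at 99.05% in DKO and 97.96% in WT. H2B had 2 such peaks in both strains under all of these settings. Its valleys were at 82.2% of the lesser peak in DKO and 80.7% in WT on linear counts. With 1.5 times the bandwidth on log2 counts they were at 88.0% and 86.0%. On linear counts with 1.5 times the bandwidth they rose to 96.2% and 96.8%, where H2Bub had 1 such peak in each strain. In DKO, 608 cells (71.7%) and in WT 538 cells (63.3%) lay below the H2Bub valley, but 110 DKO cells and 103 WT cells lay within 10% of it.

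Gaussian mixtures gave an answer that depended on the scale. On log2 counts, a mixture of 2 components had a BIC (a measure of fit that penalises added components, lower being better) 7.56 higher than 1 component in WT. In DKO it was 134 lower, but the added component stood at 380 UMIs and held 1.44% of the cells. Without the 10 low cells it was 1.18 higher in DKO. For H2B on log2 counts, 2 components had a BIC lower by 77.5 in DKO, 122 without the low cells, and by 53.5 in WT. With 3 components the BIC of H2B was lower still than with 2, by 109 in DKO, 13.0 without the low cells and 22.9 in WT. With 3 components on log2 H2Bub, the upper one stood at 4310 UMIs over all DKO cells and held 24.5% of them. Without the low cells it stood at 3825 UMIs in DKO and held 44.6% of the remaining cells. In WT it stood at 635 UMIs and held 49.6%. The BIC of 3 components was 12.8 below that of 1 component in DKO without the low cells and 9.30 below it in WT. Over all DKO cells it was 130 below that of 1 component and 3.38 above that of 2. On linear counts, 2 components of H2Bub had a BIC lower than 1 component by 122 in DKO, 148 without the low cells, and by 165 in WT. The number of H2Bub populations was therefore not settled by the distribution of H2Bub alone.

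The fold between the strains was nearly the same along the whole distribution of H2Bub. At the 10th percentile H2Bub was 1629 UMIs in DKO and 276.9 in WT, 5.88-fold (4.98 to 6.97). The median gave 5.90-fold (5.17 to 6.75), and the 90th percentile, with 4509 UMIs in DKO and 781.1 in WT, gave 5.77-fold (5.23 to 6.38). From the 5th to the 95th percentile the fold stayed between 5.60 and 5.98. Of the 13 percentiles, the 1st stood apart, with 592.7 UMIs in DKO and 186.5 in WT, 3.18-fold (2.54 to 3.998). It rests on the 10 low DKO cells, without which it was 5.50-fold.

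**Figure D2:**
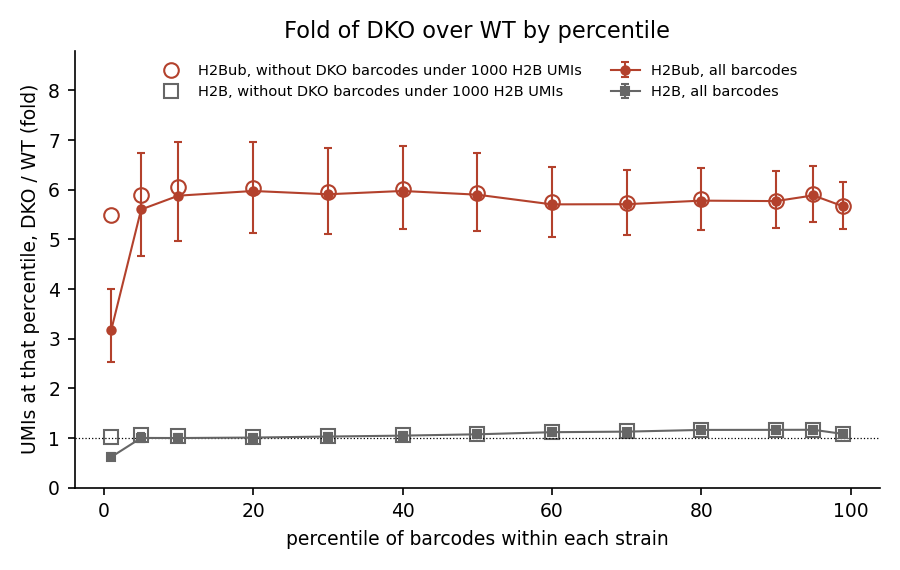
Fold of DKO over WT of the UMIs per cell at 13 percentiles, for H2Bub and H2B; bars are the widest bounds from exact Poisson intervals of both counts, and open symbols leave out the DKO cells under 1000 H2B UMIs. H2Bub stays between 5.60 and 5.98 from the 5th to the 95th percentile, and H2B between 1.003 and 1.17.

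Sums over 10 bins of cells of nearly equal number, ranked by their count, gave narrower intervals. Cells of bin 1, the lowest, summed to 102043 H2Bub UMIs in DKO and 19155 in WT, 5.33-fold (5.25 to 5.41) per cell. The bins above it lay between 5.71-fold and 5.94-fold. Of these, bins 2 to 5 gave 5.90-fold to 5.94-fold and bins 6 to 10 gave 5.71-fold to 5.77-fold, so that bins 2 to 5 were slightly above bins 6 to 10. Bin 1 was the lowest, but without the 10 low DKO cells, and with the cells ranked again, it gave 5.998-fold (5.91 to 6.09). H2B ran the other way, with 1.01-fold in bin 2, 1.07-fold in bin 5 and 1.15-fold in bin 10. Ranks were taken within each strain and for each species alone, so that a bin does not follow the same cells between species.

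H2Bub varied between cells by much more than counting error. If cells differed by Poisson counting alone, the variance would equal the mean. The variance of H2Bub was 499.6 times the mean in DKO and 91.2 times the mean in WT. These ratios grow with the count itself, and scaled to the mean of WT, the DKO ratio would be 87.4. Counting made up 0.200% of the variance of H2Bub in DKO and 1.10% in WT.

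With the counting part taken off, the coefficient of variation (SD over mean) of H2Bub was nearly the same in both strains. It was 41.4% (41.3 to 41.6%) in DKO and 42.3% (42.0 to 42.7%) in WT. Without the 10 low cells the DKO value was 40.1%. H2B of the same cells varied by 48.8% in DKO and by 44.2% in WT, so that H2Bub was the less variable of the 2 species in both strains. In WT this order turned when 25 UMIs per cell were taken off H2Bub as background, with 44.5% for H2Bub and 44.2% for H2B. Cells far above the median were few: 33 DKO cells and 40 WT cells had more than 2 times the median H2Bub of their strain. From the number of barcodes in use, 4.74% of DKO barcodes and 4.76% of WT barcodes would hold more than 1 cell, and how far such barcodes make up the upper end was not tested.

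Most of this spread was shared with H2B. H2Bub and H2B of the same cell had Pearson's r = 0.937 in DKO (n = 848 cells) and 0.961 in WT (n = 850 cells), given as a description, since both counts of a cell share its size, its barcode and its recovery. Of the variance of H2Bub beyond counting, 88.1% in DKO and 93.6% in WT was linear in H2B. The part of H2Bub that was not linear in H2B had a coefficient of variation of 14.3% in DKO and 10.7% in WT. On log scales, a cell with 2 times the H2B had 1.77-fold the H2Bub in DKO (1.71-fold without the 10 low cells) and 1.88-fold in WT, from a straight line over cells with an H2Bub UMI.

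The share of all H2B that carried ubiquitin, H2Bub/(H2B + H2Bub), separated the strains completely. Summed over cells it was 39.3% (39.26 to 39.33%) in DKO and 11.0% (10.99 to 11.05%) in WT, 3.57-fold higher in DKO (3.55 to 3.58) and 28.3 percentage points apart. This fold is smaller than that of the H2Bub counts, as H2Bub also stands in the denominator of the share. About 1 in 2.54 counted H2B molecules carried ubiquitin in DKO, against 1 in 9.08 in WT. No DKO cell had a share as low as the highest WT cell. The lowest DKO share was 28.0% (27.0 to 29.0%), in a cell with 2146 H2Bub UMIs, and the highest WT share 15.1% (13.6 to 16.6%), in a cell with 343 H2Bub UMIs, a gap of 12.9 percentage points. The highest DKO share was 57.0%, and the lowest WT share above 0 was 7.47%. In 10 DKO cells (1.18%) there was more H2Bub than H2B.

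**Figure D3:**
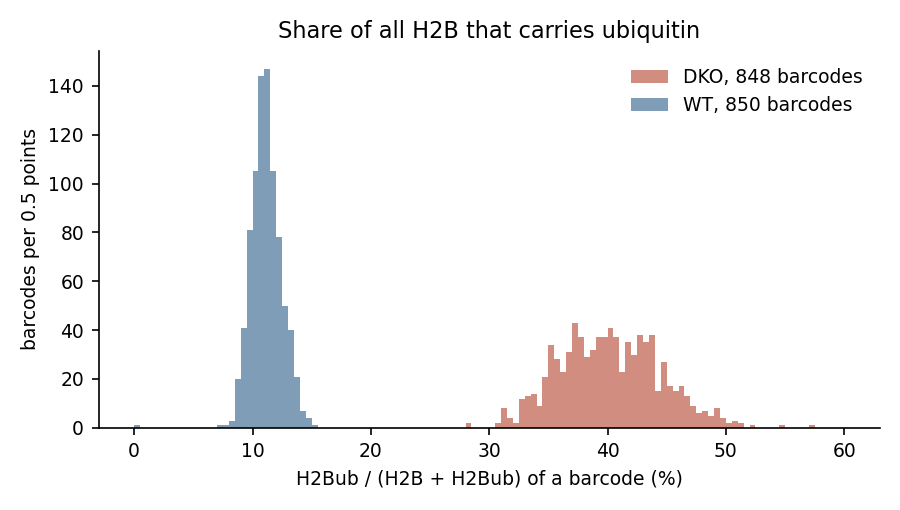
Number of cells by their share H2Bub/(H2B + H2Bub), in bins of 0.5 percentage points, for DKO and WT. All WT cells lie at or below 15.1% and all DKO cells at or above 28.0%; the WT cell at 0 is the one without an H2Bub UMI.

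Spread of the share was wider in DKO in percentage points and similar in relative terms. The mean share of a cell was 40.2 ± 4.28% (SD, n = 848 cells) in DKO and 11.2 ± 1.29% (SD, n = 850 cells) in WT. Binomial counting at the depth of these cells would give an SD of 0.655 points in DKO and 0.513 points in WT. With that part taken off, 4.22 points (4.18 to 4.27) remained in DKO and 1.18 points (1.14 to 1.22) in WT, and 1.12 points in WT without the cell that had no H2Bub. Relative to the mean share, the spread beyond counting was 10.5% in DKO and 10.6% in WT. Leaving out the cell that had no H2Bub lowers the WT value, so that these values do not rank the strains. From the 5th to the 95th percentile, shares ran from 33.5 to 47.3% in DKO and from 9.17 to 13.3% in WT.

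The share changed with the amount of histone in the cell, and most of the change lay in the middle of the range. Cells were ranked by H2B and H2Bub together and divided into 10 bins of nearly equal number, from low to high, since a share of that sum is not tilted by counting error of the sum. In DKO the share was 43.2%, 43.5% and 43.1% in bins 2 to 4, 41.5% in bin 5, 38.8% in bin 6 and 37.2 to 37.9% in bins 7 to 10. In WT it was 11.7%, 11.7% and 11.5% in bins 2 to 4, 11.3% in bin 5, 10.8% in bin 6 and 10.6 to 10.9% in bins 7 to 10. Bin 1 lay below bin 2 in both strains, with 41.9% (41.7 to 42.1%) in DKO and 11.5% (11.4 to 11.7%) in WT. In WT, bin 1 holds the cell that had no H2Bub, which lowers its share. That bin was not computed without this cell, so that a lower bin 1 is not established for WT. The counting interval of bin 2 overlapped that of bin 1 in WT (11.6 to 11.8%) and did not in DKO (43.0 to 43.3%). These intervals leave out the spread between cells. Shares of cells had an SD of 3.71 points in bin 1 and 3.85 in bin 2 of DKO, and of 1.91 and 1.34 points in WT. Without the 10 low cells, bin 1 of DKO had 41.8% (41.6 to 42.0%) and bin 2 had 43.4% (43.3 to 43.6%).

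**Figure D4:**
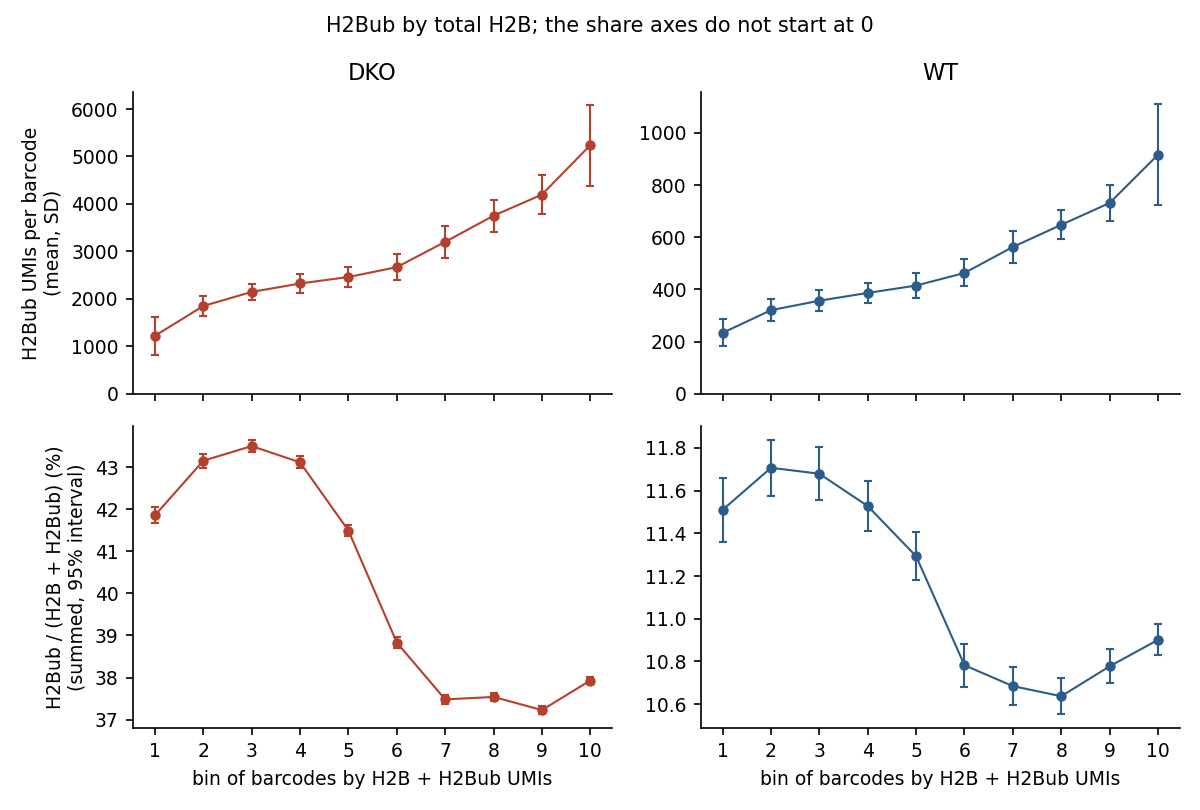
Mean H2Bub UMIs per cell with the SD over cells (top) and summed share with its 95% counting interval (bottom, axes not from 0) in 10 bins of cells by H2B plus H2Bub, for DKO (left) and WT (right). Between bins 4 and 7 the share falls from 43.1 to 37.5% in DKO and from 11.5 to 10.7% in WT.

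In counts, H2Bub differed less than H2B across this fall. H2Bub averaged 2324 UMIs per cell in bin 4 and 2668 in bin 6 of DKO, 1.15-fold, while H2B was 1.37-fold higher in bin 6. In WT, H2Bub averaged 387 UMIs in bin 4 and 463 in bin 6, 1.20-fold, and H2B was 1.29-fold higher. Above it the folds of both species were closer. In bin 10 H2Bub was 1.25-fold that of bin 9 in both strains, and H2B 1.21-fold in DKO and 1.24-fold in WT. The share fold of DKO over WT was 3.64 to 3.74 in bins 1 to 5 and 3.45 to 3.60 in bins 6 to 10, and this difference has no replicate check.

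Split into 3 groups of nearly equal number by H2B alone, from low to high, the cells had 1840 ± 528, 2627 ± 476 and 4249 ± 913 (SD) H2Bub UMIs in DKO, and 314 ± 72.5, 449 ± 77.9 and 747 ± 167 in WT. H2Bub was 5.86-fold, 5.85-fold and 5.69-fold higher in DKO in the 3 groups. Within each strain, mean ± SD of H2Bub overlapped between the low and the middle group and not between the middle and the high group.

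The ligation barcode of a cell moved with its H2Bub share. Of the variance of the share, 6.75% in DKO and 18.2% in WT lay between first-round barcodes, after the spread within a barcode was taken off. Between second-round barcodes lay 4.81% in DKO and 3.39% in WT. Over the 95 first-round barcodes present in both strains, the mean share in DKO and in WT had Pearson's r = 0.492 and Spearman's rho = 0.467, and over the 82 with 5 or more cells in each strain r was 0.450. Less the mean of cells of like total, r was 0.601. For the 94 second-round barcodes r was 0.247. These are descriptions over barcodes, which share the oligo and the library.

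**Figure D5:**
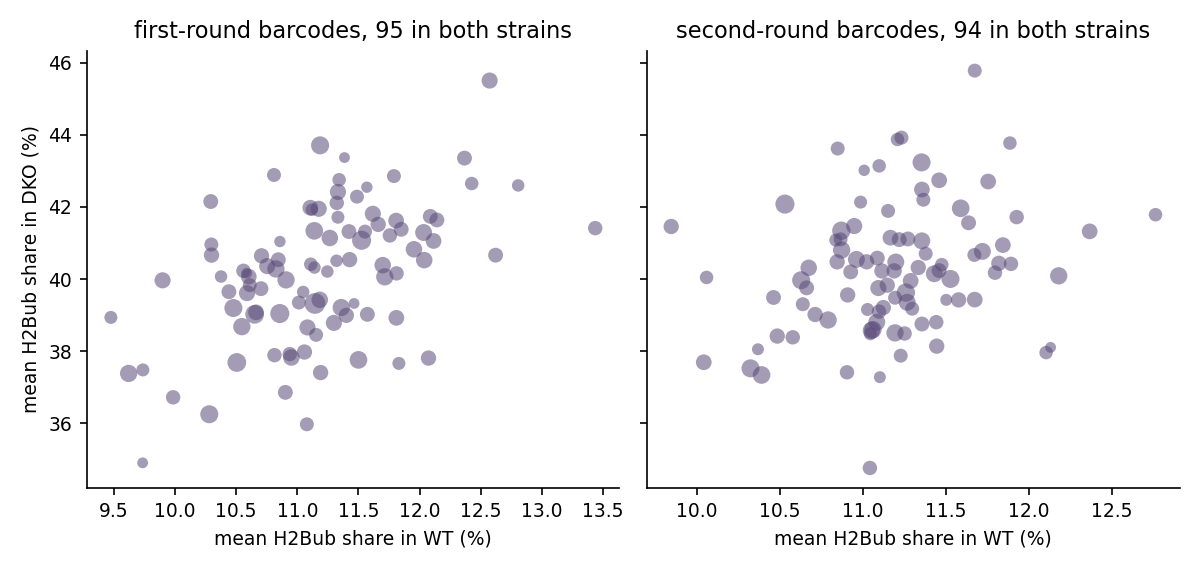
Mean H2Bub share of the cells of each ligation barcode in DKO (vertical, %) against WT (horizontal, %), for the first round (left, 95 barcodes) and the second round (right, 94); point area grows with the number of cells, and axes do not start at 0. Barcodes with a higher share in WT tend to have a higher share in DKO in the first round (r = 0.492), less so in the second (r = 0.247).

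First-round barcodes with 5 or more cells in each strain were ranked by their share relative to their strain, averaged over both strains. By this measure wells H3 and F11 were the lowest and wells H11 and D7 the highest, as printed above. Single strains gave another order. In DKO, D5 (36.0%) and A7 (36.3%) were among those below H3, and A5 (43.7%) was above D7 (43.4%). In WT, F10 (12.62%) was above H11 (12.57%) and D7 (12.4%). The barcode of H3, GCGTTAGA, had a mean share of 37.4% in 11 DKO cells and 9.62% in 12 WT cells. The barcode of H11, CTTCGGTT, had 45.5% in 12 DKO cells and 12.6% in 8 WT cells. Of the variance of the H2Bub count itself, 3.53% in DKO and 6.32% in WT lay between first-round barcodes, less than for the share in each strain. Over the 95 first-round barcodes present in both strains, mean H2Bub had Pearson's r = 0.312 and Spearman's rho = 0.271 between the strains. What part of the spread of the share comes from the barcoding was not tested. Within first-round barcodes the spread beyond counting was 4.08 points in DKO and 1.04 points in WT.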

How the data were processed

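The deposited values are raw counts of unique UMIs per cell barcode and gel band. The authors allowed 1 mismatch in the constant part of a read, joined both cell barcodes, kept those among the 9216 combinations, chose real cells by reads per barcode and counted UMIs after amplifying part of the recovered material. How UMIs with sequencing errors were handled, and with which tool, is not given in the sources. The bands were sequenced as separate libraries, so that unequal recovery or depth shifts folds and shares.

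All 848 DKO and 850 WT barcodes were used unfiltered, and 0 columns of per-sample values were left out. At the highest H2Bub count, chance matches of 12 nt UMIs would remove 0.0243% of UMIs. Neither reads nor the background band were used here. Folds of sums carry exact conditional binomial intervals, shares Clopper-Pearson and single counts Poisson intervals. Folds at percentiles and of shares carry the widest bounds of the intervals of both strains. Intervals of spread were propagated from Poisson error of each count. Densities used Scott's bandwidth, and peaks count from 5% of the highest density, a limit set after the data were seen. Named were H2Bub, H2B, the extreme cells and, as annotation from RefSeq R64, 6 genes; wells and single cells beyond these were chosen after their values were seen. The member and analyses were chosen with earlier results of these data known. Functions were tested on simulated counts. Counts were handled with pandas 2.3.3 and NumPy 2.4.6 under Python 3.11.15, mixtures with scikit-learn 1.9.0, densities and intervals with SciPy 1.17.1, and figures with Matplotlib 3.10.9. Alternatives changed the cells left out, a background of 25 UMIs, the summary, the ligation barcodes, the scale and the bandwidth.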

Additional observations from a re-analysis of the deposited data

How the results depend on the processing

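Of 79 values under alternatives, 44 stayed within the counting interval of the main value (for numbers of peaks, within 1.5 times) and 35 did not. Some of the 44 only repeat the main value, since WT had no cell under 1000 H2B UMIs and DKO none without H2Bub. All H2Bub folds kept more H2Bub in DKO than in WT, and the other values have no direction to change. The order of H2Bub and H2B in coefficient of variation turned in WT less background (44.5% for H2Bub, 44.2% for H2B). H2B was the more variable under the other settings run, in both strains. Leaving out the 10 low DKO cells moved the fold of the lowest bin to 5.998 (added after seeing the data). Apart from the numbers of peaks none moved by over 1.5 times. No paired analysis was possible because each group is a single library. The cause of these shifts was not tested.

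The H2Bub fold of 5.77 was 5.83 without cells under 1000 H2B UMIs, 5.69 without those over 9000, 6.02 with 25 UMIs per cell taken off as background, 5.90 from medians, and 5.67 and 5.93 as medians over first- and second-round barcodes. The share in DKO was 39.4% without cells over 9000 H2B UMIs, 39.1% less background, 40.2% as mean and 40.0% as median of cells. In WT it was 10.5% less background, 11.2% as mean and 11.1% as median. The coefficient of variation beyond counting in DKO was 40.1% without cells under 1000 H2B UMIs, 38.4% without those over 9000, 41.8% less background, 40.7% within first-round barcodes and 42.0% from the interquartile range. In WT it was 39.5%, 44.5%, 41.0% and 43.3% under the last 4 of these. Spread of the share was 4.08 points in DKO within first-round barcodes, and in WT 1.14 less background, 1.12 without the cell that had no H2Bub (added after seeing the data) and 1.04 within first-round barcodes.

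All peaks of the H2Bub density numbered 5 in DKO and 2 in WT. In DKO there were 2 with 1.5 times the bandwidth, 3 on linear counts and 2 without cells under 1000 H2B UMIs, and in WT 1 with 1.5 times the bandwidth. Of peaks at 5% or more of the highest (a count added after seeing the data), 2 in each strain, there was 1 in each with 1.5 times the bandwidth and 1 on linear counts, and there were 2 in each with 0.75 times the bandwidth, where all peaks numbered 6 in DKO and 3 in WT. Counting limits a single WT cell most, with a counting SD of 4.46% of H2Bub at the mean count, against 1.86% in DKO.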

Other observations

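The DKO and WT tables had 72 cell barcodes in common, 8.49% of the DKO and 8.47% of the WT barcodes. A barcode found in both marks different cells, as each strain was a culture of its own. All 72 had more H2Bub in DKO than in WT, with a median of 2312 UMIs in DKO and 491.5 in WT, and their means were 5.43-fold apart. Over all cells, only 1.42% of DKO cells were at or below the 95th percentile of WT. Most pairings of unrelated cells would therefore give the same order. The H2Bub counts under the same barcode had Pearson's r = 0.121 between the strains.

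The letters of the first-round barcode, looked at after the pattern over barcodes had been seen, differed along with the share of H2Bub. Positions and classes of letters were chosen with these shares known and are shown on the same cells. The first-round order is thus a description and no test. Counting positions from the 5′ end of the 8 nt, DKO cells whose barcode had C or T at both positions 2 and 3 had a mean over barcodes of 41.6 ± 1.47% (SD, 23 barcodes) H2Bub, those with C or T at 1 of them 40.1 ± 1.73% (43 barcodes), and those with A or G at both 39.1 ± 1.62% (30 barcodes). In WT the same classes had 11.6 ± 0.672% (23 barcodes), 11.2 ± 0.713% (42 barcodes) and 10.9 ± 0.583% (30 barcodes). The classes overlapped in both strains. In the second round, where the barcode lies in another oligo, they had 41.1 ± 2.13%, 40.0 ± 1.53% and 39.9 ± 1.66% in DKO, and 11.2 ± 0.594%, 11.3 ± 0.392% and 11.0 ± 0.493% in WT, without that order in WT.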
